A study of Mus musculus with 8 samples.

Results

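Imprinted genes were followed by cluster and by the parental allele that is active in the body's tissues. A list of 52 textbook imprinted genes of the mouse, from 20 clusters, was matched by symbol to the deposited FPKM, which are fragments scaled to transcript length and to library size, and the transcript entries of each gene were summed. There were 45 of the 52 genes among the 17589 genes of the table, with 158 of its 45550 transcript entries. Of these, 38 averaged 1 FPKM or more across all 8 libraries and were tested, as were 13483 genes in all. The data came from Oct4-GFP positive cells sorted from testes of GOF/deltaPE-Oct4/GFP mice of strain C57BL/6 at 6 dpp (days post partum), 4 libraries with genotype KDM1A KO and 4 with genotype Control, both groups carrying the reporter. The protocol calls the knockout conditional, and the Cre driver, the floxed exons and whether controls carried Cre were not stated in the labels. The labels do not say that the libraries came from separate animals, so the p-values speak for the spread of these 8 samples alone, part of which may be technical.

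Genomic imprinting marks a gene by DNA methylation set in the egg or the sperm lineage, so that after fertilisation 1 parental copy is silent. Most control regions are methylated on the maternal copy, while those of the H19-Igf2, Dlk1-Meg3 and Rasgrf1 clusters are methylated on the paternal copy. The marks are erased in primordial germ cells and reset by sex, so that in spermatogonia both copies are expected to carry the paternal pattern. KDM1A removes methyl groups from lysine 4 of histone H3, and its relative KDM1B is needed for maternal imprints in the oocyte. FPKM here do not separate the alleles: paternally or maternally expressed names the allele known from somatic tissues, in several cases from brain or placenta alone.

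Kdm1a itself, the targeted gene, had 14.2, 14.1, 17.3 and 14.9 FPKM in knockout replicates 1 to 4, against 53.7, 54.0, 92.0 and 48.1 FPKM in control replicates 1 to 4, and fell by 1.92 on the log2 scale (adjusted p = 6.88e-05). Which exons were removed is not known here, so the remaining signal cannot be placed in the transcript. Correlations of log2(FPKM + 1) between libraries were 0.949 to 0.982 within the knockouts, 0.967 to 0.981 within the controls and 0.910 to 0.948 between the groups. Estimated depth, read off the smallest differences among low FPKM, ranged between 45250000 and 63000000 fragments for knockout libraries and between 60750000 and 67000000 for control libraries. Knockout replicate 2, the shallowest library, stood apart by transcript length: against the other knockouts its median log2 difference was 0.40 over 2266 genes of up to 1000 bases and -0.41 over 1102 genes longer than 6000 bases. Every other library, set against the rest of its group, stayed between -0.22 and 0.27 in each length class. Long genes are therefore low in knockout replicate 2.

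Imprinted transcripts were more often higher than lower in knockout spermatogonia, and more of the rises were in genes whose paternal copy is the active one in the soma. Of the 38 tested members, 22 rose, 2 fell and 14 did not pass the test, while of all 13483 genes tested 25.3% were called higher and 12.1% lower. Among the 19 tested paternally expressed members, 15 rose and 0 fell (limma, 17 and 0 at an unadjusted p under 0.05), and the median log2 change was 0.96. Among the 19 maternally expressed members, 7 rose and 2 fell, and the median was 0.11, against 0.09 for all genes tested. The list marks Ube3a, Blcap, Trappc9, Commd1, Cd81, Tssc4, Gnas and H13 as maternally expressed in certain tissues or transcripts alone. Both falls, Gnas and Trappc9, are among these, and Commd1 is the only gene of them that rose. The called rises ranged in size between 1.28-fold for Copg2 and 6.08-fold for Sgce, and they came from 15 of the 20 clusters. All 4 knockout libraries lay above all 4 control libraries for 22 members, against 26.1% of all genes tested, and below them for 3, against 12.5%. The difference between the paternal and maternal counts is a description of the members and was not tested.

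A filter on the mean lets a low gene in through the group where it is high. Here 5 tested members, Sgce, Nap1l5, Slc22a18, Usp29 and Nespas, had a control mean under 1 FPKM, and 0 had a knockout mean under it. With both group means at 1 FPKM or more, 12 of 15 paternally expressed members rose and 0 fell, with a median of 0.87, and 6 of 18 maternally expressed members rose and 2 fell, with a median of 0.11. The share of all genes called under this filter was not computed, so these counts lack a matching background. With no filter, 16 of 23 paternally and 8 of 22 maternally expressed members were called higher, against 26.4% of 17589 genes, and 0 and 2 lower, against 11.4%. The direction of the 2 falls depends on scaling. When libraries were set to equal FPKM totals, the median change of all genes moved to 0.74, 34 members were called higher and 0 lower, and Gnas, Trappc9, Dlk1 and Blcap turned positive. With 208 small RNA genes removed first, equal totals gave 20 higher and 2 lower and a median over all genes of 0.01.

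**Figure D1:**
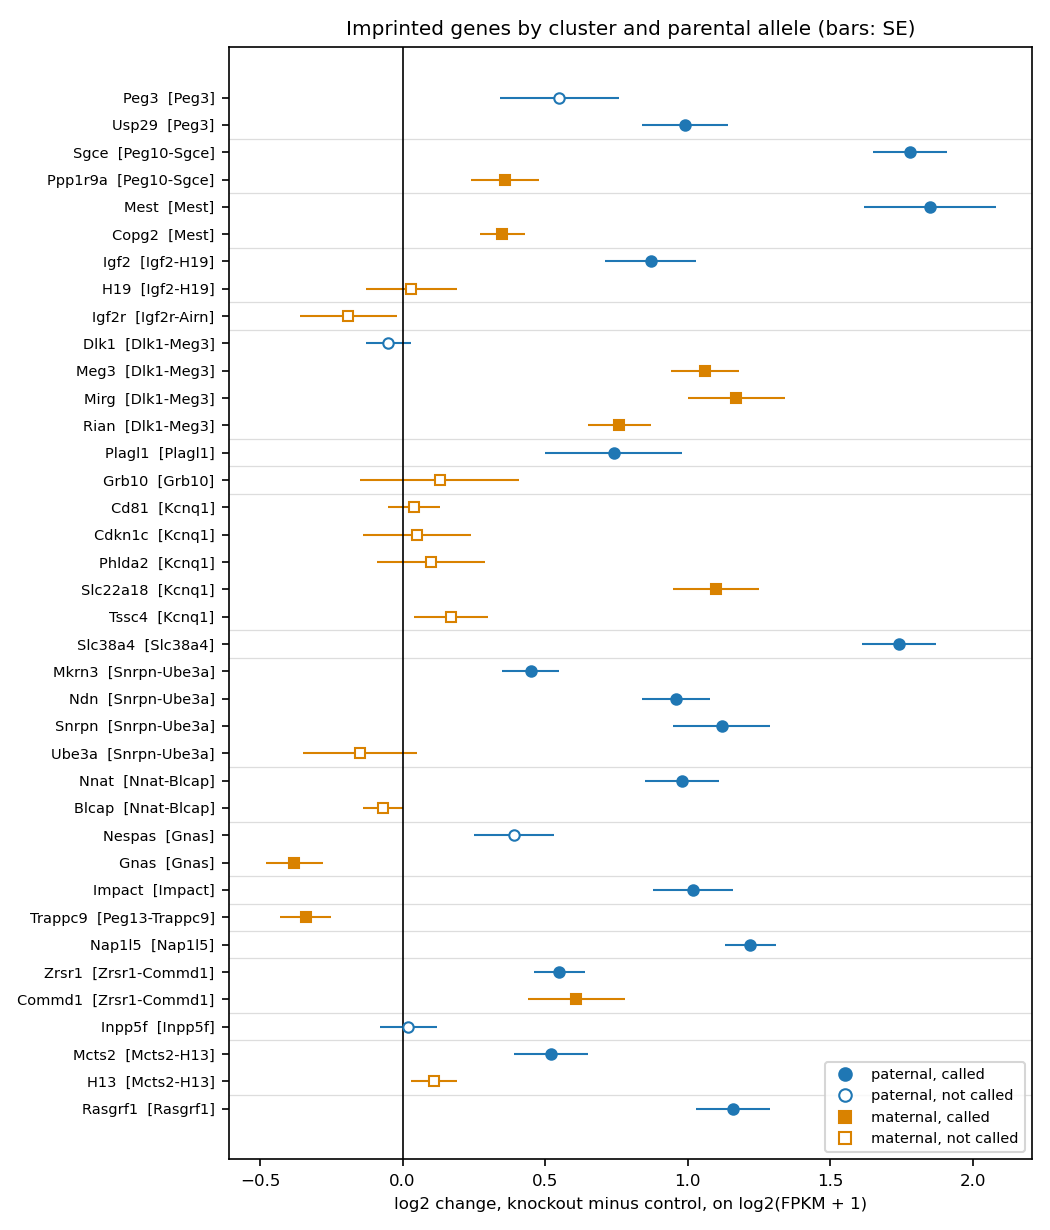
Log2 change, knockout minus control on log2(FPKM + 1), of the 38 tested imprinted genes, with bars for 1 SE, grouped by cluster (in brackets). Blue circles are paternally and orange squares maternally expressed genes, filled where the adjusted p is under 0.05. Over all genes tested, 25.3% were called higher and 12.1% lower. Of 19 circles 15 are filled and to the right of 0. Of 19 squares 7 are filled and to the right of 0, and 2, Gnas and Trappc9, are filled and to the left. Under equal totals these 2 genes move to the right of 0 but are not called, and with small RNA genes removed first they stay called lower.

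The promoters of several members that rose hold the letters TGCCGC, the core bound by ZFP57, the zinc finger protein that protects imprints in the embryo and whose transcript was itself higher in knockout cells (values below). In the 250 bases before the start in the RefSeq promoter table on GRCm38.p6, which holds 32 of the 38 tested members, TGCCGC was found on either strand (as GCGGCA on the other) in 6 of 20 members that rose, 0 of 1 that fell and 0 of 11 that were not called. Of all 27025 genes listed there, 9.84% hold it, as do 18.8% of the 32 members. The 6 are Mest, Meg3, Nap1l5, Plagl1, Mcts2 and Copg2. Mest and Meg3 each also have a listed start whose window holds no match. A gene with more listed starts has more windows that could match. Rian and Mirg, which rose in the same cluster as Meg3, have no match. Slc38a4, Snrpn, Ndn, Rasgrf1, Nnat and Igf2 also rose and have none. The motif contains CpG, and the median number of CpG in the window was 11 for the members that rose, 17 for those not called and 6 for all genes. A match is not a bound site, and a link between the motif, the rise of Zfp57 and the rises of these members was not tested. The windows of Mest, Meg3 and Nap1l5 are printed with the motif in capitals because these genes rose, beside that of Dlk1, which lies in the Meg3 cluster, was not called and has no match. They are, in order, chr6:30737800-30738049 (plus strand), chr12:109540746-109540995 (plus strand), chr6:58907127-58907376 (minus strand) and chr12:109452573-109452822 (plus strand).
Mest: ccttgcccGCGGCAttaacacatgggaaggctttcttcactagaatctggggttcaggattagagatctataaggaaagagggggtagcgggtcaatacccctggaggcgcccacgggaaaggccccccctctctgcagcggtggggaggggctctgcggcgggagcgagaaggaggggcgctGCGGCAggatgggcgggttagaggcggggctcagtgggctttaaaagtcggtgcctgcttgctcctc
Meg3: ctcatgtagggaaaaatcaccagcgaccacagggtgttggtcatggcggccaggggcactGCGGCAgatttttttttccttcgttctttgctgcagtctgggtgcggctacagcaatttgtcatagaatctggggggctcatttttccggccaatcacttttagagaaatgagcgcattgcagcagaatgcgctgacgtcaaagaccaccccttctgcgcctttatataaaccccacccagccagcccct
Nap1l5: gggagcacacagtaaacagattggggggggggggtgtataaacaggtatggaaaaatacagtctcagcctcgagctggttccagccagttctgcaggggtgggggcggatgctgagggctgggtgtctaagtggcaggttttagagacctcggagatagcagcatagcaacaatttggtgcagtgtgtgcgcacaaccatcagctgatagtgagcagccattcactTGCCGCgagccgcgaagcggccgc
Dlk1: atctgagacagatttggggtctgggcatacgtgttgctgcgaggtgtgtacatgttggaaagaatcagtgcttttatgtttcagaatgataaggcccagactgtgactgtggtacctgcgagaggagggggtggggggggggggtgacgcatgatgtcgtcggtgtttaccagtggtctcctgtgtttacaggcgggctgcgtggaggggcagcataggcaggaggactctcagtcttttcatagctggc

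The 4 largest changes on the log2(FPKM + 1) scale were in paternally expressed genes, Mest, Sgce, Slc38a4 and Nap1l5, while by the ratio of mean FPKM, among called members, the maternally expressed Slc22a18, at 4.41-fold, came after Sgce alone. Mest, an enzyme of the alpha/beta hydrolase fold that is abundant in growing mesoderm, lies on GRCm38 at chr6:30723547-30748465, has 2 such motifs in its printed promoter, and had 48.8, 26.8, 41.0 and 49.5 FPKM in the knockout libraries, against 10.6, 7.20, 11.1 and 14.1 FPKM in the control libraries. Knockout replicate 2 was the lowest of its group and still above every control, and Mest rose 3.86-fold (log2 change 1.85 ± 0.23 SE, adjusted p = 0.000287). Sgce, which encodes epsilon-sarcoglycan of the dystrophin-associated complex, lies at chr6:4674350-4747207 and had 6.19, 5.31, 4.92 and 5.75 FPKM in the knockout libraries, against 1.07, 0.507, 0.926 and 1.14 FPKM in the control libraries. The groups were far apart, with a fold of 6.08-fold and a log2 change of 1.78 ± 0.13 (adjusted p = 1.81e-05). With a control mean of 0.9115 FPKM, Sgce passed the filter only through the knockout group, and its fold rests on a low control value. Slc38a4, a sodium-coupled transporter of neutral amino acids at chr15:96994820-97055956, had 13.9, 10.0, 10.8 and 12.7 FPKM in the knockout libraries, against 2.54, 2.35, 3.13 and 3.37 FPKM in the control libraries. All knockout values lay above all control values, and the rise was 4.17-fold (log2 change 1.74 ± 0.13, adjusted p = 1.98e-05). Nap1l5, an intronless member of the nucleosome assembly family inside Herc3 at chr6:58905233-58907076, had 3.53, 3.44, 3.35 and 3.16 FPKM in the knockout libraries, against 0.765, 1.02, 0.751 and 0.9999 FPKM in the control libraries, for 258 to 377 fragments in the knockouts and 80 to 109 in the controls. It rose 3.81-fold with a log2 change of 1.22 ± 0.09 (adjusted p = 2.02e-05), while Herc3, its host gene, had a log2 change of 0.01 and was not called. With a control mean of 0.884 FPKM, Nap1l5 also passed the filter only through the knockout group.

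Rasgrf1, an exchange factor that activates Ras and whose control region is methylated in sperm, had 4.23, 2.83, 3.81 and 3.75 FPKM in the knockout libraries, against 0.863, 1.202, 1.38 and 0.852 FPKM in the control libraries. The groups did not overlap, and it rose 3.40-fold (log2 change 1.16 ± 0.13, adjusted p = 0.000183). Impact, which inhibits the kinase GCN2, had 12.4, 8.65, 12.2 and 12.7 FPKM in the knockout libraries, against 4.07, 5.02, 5.55 and 5.84 FPKM in the control libraries. Knockout replicate 2 was again lowest and above every control (rise 2.24-fold, adjusted p = 0.000572). Plagl1, a zinc finger factor that controls growth and other imprinted genes, had 5.60, 2.34, 4.17 and 4.12 FPKM in the knockout libraries, against 3.31, 1.59, 1.79 and 1.43 FPKM in the control libraries. Here the groups overlapped: control replicate 1 lay above knockout replicate 2. The call, at a log2 change of 0.74 ± 0.24 and adjusted p = 0.0349, was lost when any of knockout replicates 1, 3 and 4 or control replicates 2, 3 and 4 was left out (adjusted p of 0.0738 to 0.0901), while without knockout replicate 2 the change was 0.92 (adjusted p = 0.00602).

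In the Peg3 cluster on chromosome 7 the paternally expressed genes differed from each other. Usp29, a ubiquitin-specific protease, had 3.44, 1.96, 3.21 and 3.14 FPKM in the knockout libraries, against 1.19, 0.672, 0.961 and 1.03 FPKM in the control libraries. It rose 3.05-fold (log2 change 0.99 ± 0.15, adjusted p = 0.000825). Peg3, a large zinc finger protein transcribed from a shared promoter in the opposite direction, had 11.1, 4.80, 8.21 and 8.60 FPKM in the knockout libraries, against 6.31, 4.63, 4.86 and 4.55 FPKM in the control libraries. Knockout replicate 2 fell among the controls while the other knockouts lay above them, and Peg3 did not pass the test (log2 change 0.55 ± 0.21, adjusted p = 0.0611). Without that library its change was 0.76 and its adjusted p 0.00212. Zim1, a maternally expressed zinc finger gene, had a mean under 1 FPKM and was not tested. It had 0.833, 0.131, 0.613 and 0.804 FPKM in the knockout libraries, against 0.424, 0.318, 0.334 and 0.290 FPKM in the control libraries, with knockout replicate 2 below every control and the other knockouts above them.

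On chromosome 6, Ppp1r9a and Copg2 lie beside Sgce and Mest and are maternally expressed in some tissues. Ppp1r9a, neurabin 1, an actin-binding partner of protein phosphatase 1, had 7.40, 5.86, 5.50 and 5.92 FPKM in the knockout libraries, against 4.98, 5.28, 4.31 and 3.74 FPKM in the control libraries. It rose 1.35-fold (log2 change 0.36 ± 0.12, adjusted p = 0.0429), and the call was lost without knockout replicate 1, 3 or 4 or control replicate 1, 3 or 4 (adjusted p of 0.0571 to 0.104). Copg2, a subunit of the COPI coat of Golgi vesicles that overlaps the 3′ end of Mest on the opposite strand, had 53.8, 55.2, 50.8 and 49.3 FPKM in the knockout libraries, against 44.9, 38.9, 40.9 and 38.9 FPKM in the control libraries. All knockouts lay above all controls, by 1.28-fold (adjusted p = 0.00651). Peg10, the retrotransposon-derived neighbour of Sgce, was under the filter at 0.888 ± 0.612 FPKM in knockout cells and 0.272 ± 0.0845 FPKM in control cells (SD, n = 4 each). Its knockout values spread widely, with 1.67 FPKM in replicate 1 and 0.187 FPKM in replicate 2. Asb4, an ankyrin repeat protein of the same cluster, was at 0.261 to 0.502 FPKM in the knockouts and 0.0452 to 0.105 FPKM in the controls, and was called higher when no filter was used (adjusted p = 0.00176). For Calcr and Klf14, of these clusters, no row under that symbol was found and they were not analysed here.

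In the Igf2-H19 cluster the growth factor and its noncoding neighbour parted. Igf2, a fetal growth factor, had 17.1, 21.6, 18.7 and 23.9 FPKM in the knockout libraries, against 11.8, 7.89, 10.2 and 13.2 FPKM in the control libraries. The groups did not overlap, and Igf2 rose 1.89-fold (log2 change 0.87 ± 0.16, adjusted p = 0.00238); its most abundant transcript entry alone was not called (adjusted p = 0.0776). H19, the noncoding RNA that shares enhancers with Igf2 and is silent on the methylated paternal copy in the soma, had 25.2, 36.3, 30.4 and 25.5 FPKM in the knockout libraries, against 32.6, 21.4, 27.8 and 33.3 FPKM in the control libraries. Its groups overlapped throughout, with a log2 change of 0.03 ± 0.16 (adjusted p = 0.894). Igf2r, the receptor that clears IGF2, is a long gene and had 19.9, 10.2, 16.0 and 17.5 FPKM in the knockout libraries, against 19.6, 17.2, 17.4 and 16.8 FPKM in the control libraries, with the low value again in knockout replicate 2 (adjusted p = 0.431). Airn, the paternally expressed antisense RNA of Igf2r, was under the filter at 0.172 to 0.959 FPKM in the knockouts and 0.0958 to 0.244 FPKM in the controls, which overlap. These are 3 to 21 and 2 to 6 fragments.

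In the Dlk1-Meg3 cluster, methylated in sperm, the maternally expressed noncoding RNAs rose together and the paternally expressed coding gene was not called. Meg3, a long noncoding RNA at chr12:109541001-109571726 whose printed promoter holds 1 TGCCGC, had 11.9, 12.2, 11.5 and 12.7 FPKM in the knockout libraries, against 6.08, 4.15, 4.85 and 6.33 FPKM in the control libraries. The knockout libraries were close together and all above the controls, with a log2 change of 1.06 ± 0.12 (adjusted p = 0.000202), though the most abundant entry alone missed the threshold (adjusted p = 0.0520). Rian, which hosts C/D box small nucleolar RNAs, had 80.0, 66.1, 73.9 and 75.1 FPKM in the knockout libraries, against 36.8, 41.0, 46.0 and 49.6 FPKM in the control libraries. It rose 1.70-fold (log2 change 0.76 ± 0.11, adjusted p = 0.000565) and was among the most abundant members, being higher per length in every library than Meg3. Mirg, a host of microRNAs at the distal end, had 3.14, 5.48, 4.66 and 4.18 FPKM in the knockout libraries, against 0.875, 1.64, 1.26 and 1.72 FPKM in the control libraries, and rose 3.18-fold (adjusted p = 0.000635). Dlk1, a membrane protein related to Notch ligands, had 30.1, 29.1, 31.3 and 33.5 FPKM in the knockout libraries, against 34.2, 33.0, 30.4 and 30.9 FPKM in the control libraries. Its groups overlapped, with a log2 change of -0.05 ± 0.08 (adjusted p = 0.641). An unnamed noncoding gene between Meg3 and Rian, AC152063.1, had 2.98 ± 0.897 FPKM in knockout cells and 0.964 ± 0.281 FPKM in control cells (SD, n = 4 each) and was also called higher (adjusted p = 0.00137). For Rtl1, antisense to a noncoding RNA of this cluster, no row was found and it was not analysed here.

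The Snrpn-Ube3a cluster on chromosome 7 held 3 rising paternally expressed genes. Snrpn, a core protein of the spliceosome, had 14.5, 17.5, 15.0 and 15.0 FPKM in the knockout libraries, against 6.80, 4.21, 7.55 and 8.59 FPKM in the control libraries. The controls varied more than the knockouts, and Snrpn rose 2.28-fold (log2 change 1.12 ± 0.17, adjusted p = 0.00107). Ndn, necdin, a growth suppressor of the MAGE family, had 24.0, 25.7, 23.1 and 27.1 FPKM in the knockout libraries, against 10.9, 10.8, 15.7 and 12.6 FPKM in the control libraries. It rose 2.00-fold (adjusted p = 0.000322), with no overlap. Mkrn3, a makorin RING finger protein that restrains puberty in humans, had 4.78, 5.11, 4.77 and 4.67 FPKM in the knockout libraries, against 2.96, 3.03, 4.04 and 3.19 FPKM in the control libraries, a rise of 1.46-fold (log2 change 0.45 ± 0.10, adjusted p = 0.00779). Ube3a, a ubiquitin ligase that is imprinted in neurons, had 17.4, 8.30, 13.8 and 15.6 FPKM in the knockout libraries, against 17.4, 14.8, 14.5 and 13.4 FPKM in the control libraries. Its lowest library was knockout replicate 2, in a transcript of 4911 bases, and it was not called (adjusted p = 0.569). Magel2 and Peg12 stayed under 0.5 FPKM in every library and were not tested, and no row was found for Snurf, which was not analysed here.

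Of the 5 tested members of the Kcnq1 cluster, all maternally expressed, 1 rose, beside 25.3% of all genes tested. Genes of the further imprinted list below are not counted here. Slc22a18, an organic cation transporter, had 1.64, 3.15, 2.16 and 2.20 FPKM in the knockout libraries, against 0.314, 0.404, 0.615 and 0.741 FPKM in the control libraries. It rose 4.41-fold (log2 change 1.10 ± 0.15, adjusted p = 0.000565) without overlap, while its neighbour Phlda2, a PH domain protein that limits placental growth, had 4.62, 7.65, 6.84 and 5.89 FPKM in the knockout libraries, against 3.98, 7.97, 5.69 and 5.65 FPKM in the control libraries and was not called (adjusted p = 0.707). Cdkn1c, the cyclin-dependent kinase inhibitor p57, had 13.6, 17.3, 12.9 and 11.2 FPKM in the knockout libraries, against 11.3, 9.89, 14.3 and 18.2 FPKM in the control libraries. Its groups overlapped and it was not called (adjusted p = 0.851). Cd81 and Tssc4 were not called either, at log2 changes of 0.04 and 0.17. Ascl2, a bHLH factor of trophoblast, was listed under 0.01 FPKM in all 4 knockouts and in control replicates 3 and 4, but at 2.44 and 2.40 FPKM in control replicates 1 and 2, which is 220 and 221 fragments. It was not tested at gene level because its mean was under 1 FPKM. For Kcnq1ot1, the noncoding RNA of this cluster, no row was found and it was not analysed here.

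On chromosome 2 Nnat, neuronatin, a small membrane protein of the endoplasmic reticulum, had 11.5, 14.2, 11.8 and 13.04 FPKM in the knockout libraries, against 5.49, 4.68, 6.09 and 7.56 FPKM in the control libraries. It rose 2.12-fold (log2 change 0.98 ± 0.13, adjusted p = 0.000484) with no overlap. Blcap, in whose intron Nnat lies, had 20.9, 20.9, 20.9 and 19.9 FPKM in the knockout libraries, against 21.3, 21.6, 22.7 and 21.4 FPKM in the control libraries. For Blcap all controls lay above all knockouts by a small margin, and it was not called (log2 change -0.07 ± 0.07, adjusted p = 0.419). Mcts2, a retrogene inside an intron of H13 related to a translation factor, had 33.4, 42.2, 37.1 and 38.9 FPKM in the knockout libraries, against 21.1, 23.2, 29.9 and 31.3 FPKM in the control libraries, and rose 1.44-fold (adjusted p = 0.0141). H13, signal peptide peptidase, had 19.6, 21.1, 19.4 and 20.4 FPKM in the knockout libraries, against 17.8, 20.5, 18.1 and 17.9 FPKM in the control libraries. Control replicate 2 lay among the knockouts, and H13 was not called (log2 change 0.11 ± 0.08, adjusted p = 0.279). Zrsr1 lies in an intron of Commd1 on chromosome 11 and is an intronless relative of the splicing factor U2AF35. It had 9.72, 10.8, 10.4 and 9.78 FPKM in the knockout libraries, against 6.38, 5.88, 7.42 and 6.99 FPKM in the control libraries, a rise of 1.52-fold (adjusted p = 0.00156). Commd1, a regulator of copper and NF-κB pathways, had 82.3, 128, 96.0 and 87.3 FPKM in the knockout libraries, against 62.5, 48.1, 68.2 and 78.0 FPKM in the control libraries. It also rose, by 1.53-fold (log2 change 0.61 ± 0.17, adjusted p = 0.0214), but the call was lost without control replicate 1 or 2 (adjusted p of 0.0511 and 0.0522), and its knockout replicate 2 stood high. Its summed entries include the readthrough transcript Gm28048-201, which had 5.08 ± 0.332 FPKM in knockout cells and 2.84 ± 0.854 FPKM in control cells (SD, n = 4 each).

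The 2 members that fell stand under the maternal allele on the list, for a subset of tissues. For Gnas that allele refers to the alpha subunit, whose main coding transcripts were not among the entries used here. A large part of the sum comes from entries that begin at the Gnasxl and exon 1A starts, which are known as paternally expressed, so the place of Gnas follows the list and not the transcripts measured; without it, 7 of 18 maternally expressed members rose and 1 fell. Gnas, whose locus encodes the alpha subunit of the stimulatory G protein and several imprinted alternative products, had 8.81, 8.51, 9.52 and 8.50 FPKM in the knockout libraries, against 11.8, 10.2, 11.7 and 13.5 FPKM in the control libraries. Every knockout was below every control, and Gnas fell to 0.749 of the control mean (log2 change -0.38 ± 0.10, adjusted p = 0.0137). Trappc9, a subunit of the TRAPP trafficking complex, had 4.57, 4.70, 4.17 and 3.85 FPKM in the knockout libraries, against 6.04, 5.67, 5.56 and 5.64 FPKM in the control libraries. It fell to 0.754 of the control mean without overlap (adjusted p = 0.0143). Under equal totals both log2 changes were above 0, at 0.29 for Gnas and 0.26 for Trappc9, neither of them called, and the most abundant Gnas entry alone had a change of -0.12 (adjusted p = 0.585). Nespas, the paternally expressed antisense RNA of the Gnas locus, had 2.39, 1.32, 1.18 and 1.67 FPKM in the knockout libraries, against 0.945, 1.10, 0.999 and 0.893 FPKM in the control libraries. Its groups did not overlap, yet it did not pass the test (log2 change 0.39 ± 0.14, adjusted p = 0.0526). Without knockout replicate 2 or 3 it was called (adjusted p = 0.0343 and 0.0365). No row was found for Peg13 or Kcnk9, of the Trappc9 cluster, and they were not analysed here. Grb10, an adaptor that damps insulin and IGF receptor signalling, had 14.4, 10.1, 12.4 and 9.53 FPKM in the knockout libraries, against 13.6, 16.1, 9.55 and 5.39 FPKM in the control libraries. It varied most among the controls, and was not called (adjusted p = 0.745).

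**Figure D2:**
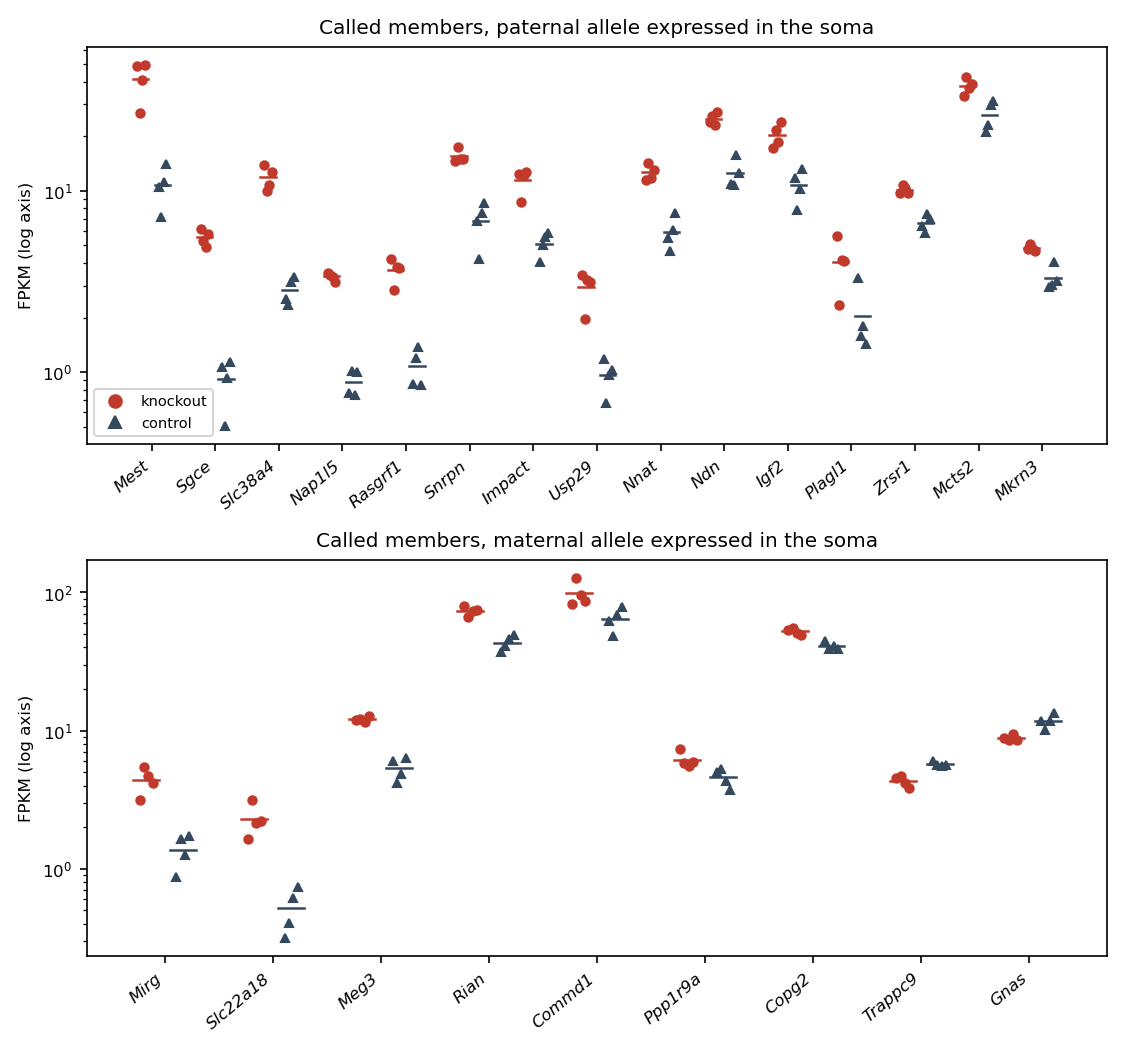
FPKM (log axis) of the 24 called imprinted genes in every library, knockout in red circles left of control in dark triangles, with a line at each group mean; the upper panel holds paternally and the lower panel maternally expressed genes. The groups overlap for Plagl1 alone. Gnas and Trappc9 are lower in the knockout on the FPKM as deposited, and every other gene shown is higher. Under equal totals the log2 changes of Gnas and Trappc9 are 0.29 and 0.26, neither of them called.

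Genes of the same cluster were then set against each other within each library. The difference of log2(FPKM + 1) between 2 genes of a cluster was taken in each library and compared by a two-sided exact permutation test (70 assignments of the libraries, lowest possible p 0.0286), with adjustment over the 11 of 17 listed pairs that had both genes at a mean of 1 FPKM or more. In all, 8 pairs did not overlap between the groups, each at the smallest p and at adjusted p = 0.0393. Over the whole genome, 37.9% of 13253 pairs of adjacent tested genes did not overlap either, so a difference of this kind is common among neighbouring genes. The listed pairs were chosen by hand, and those of the genome by position, so the 2 shares are not matched. Each of the 8 pairs also holds a member called on its own, so the separation partly restates those calls. Mest minus Copg2 was -0.14, -1.01, -0.30 and 0.00 in the knockout libraries, against -1.99, -2.28, -1.79 and -1.40 in the control libraries, a shift of 1.5. Mest was thus near Copg2 in level in 3 knockout libraries and well below it in every control library. Meg3 minus Dlk1 was -1.27, -1.19, -1.37 and -1.33 in the knockout libraries, against -2.31, -2.73, -2.42 and -2.12 in the control libraries, a shift of 1.11. Meg3 stayed below Dlk1 in every library but came closer to it in the knockouts. H19 minus Igf2 was 0.53, 0.72, 0.67 and 0.09 in the knockout libraries, against 1.39, 1.33, 1.36 and 1.27 in the control libraries, a shift of -0.84, as Igf2 rose and H19 was not called.

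Snrpn minus Ube3a was -0.25, 0.99, 0.12 and -0.06 in the knockout libraries, against -1.24, -1.60, -0.86 and -0.58 in the control libraries, a shift of 1.27. Knockout replicate 2, where Ube3a was low, stands high among the knockouts. Without knockout replicate 2 that shift was 1.01. Nnat minus Blcap shifted by 1.05 and Nespas minus Gnas by 0.77. Phlda2 minus Slc22a18 shifted by -1.0 and Peg3 minus Usp29 by -0.44, as Slc22a18 and Usp29 rose and their partners were not called. Slc22a18, Usp29 and Nespas had control means of 0.519, 0.963 and 0.985 FPKM and passed the filter only through the knockout group. Their pairs were therefore admitted by the same values that part the groups. Mcts2 minus H13 (0.41, exact permutation adjusted p = 0.0698), Meg3 minus Rian (0.30, adjusted p = 0.157) and Zrsr1 minus Commd1 (-0.06, adjusted p = 0.714) overlapped between groups. Some of these pairs share sequence or overlap, as Mest with Copg2, Nnat with Blcap and Nespas with Gnas do, and the strand setting of the counting is not given, so reads of the partners cannot be fully told apart. When each gene was represented by its most abundant transcript entry alone, 0 pairs were called, at exact permutation adjusted p of 0.0629 or more; 5 pairs were at the lowest possible p.

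**Figure D3:**
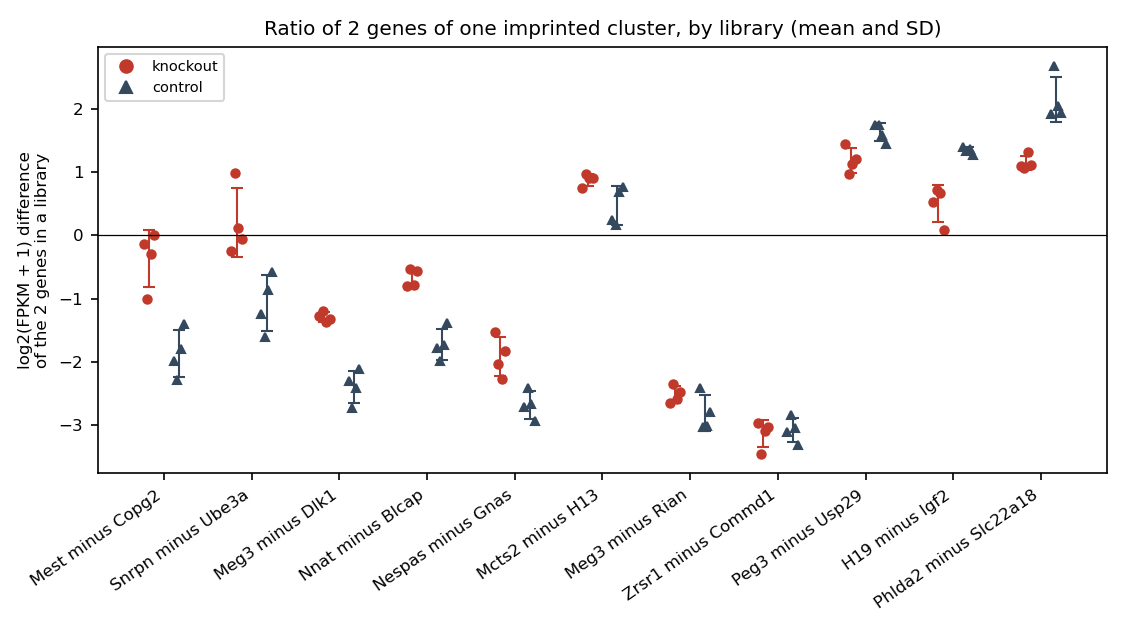
Difference of log2(FPKM + 1) between 2 genes of one imprinted cluster in each library, knockout in red circles left of control in dark triangles, with mean and SD bars (n = 4 each). The groups do not overlap for 8 of the 11 pairs, beside 37.9% of adjacent tested genes over the genome, which were not chosen by hand. Each of the 8 holds a member called on its own, and the pairs with Slc22a18, Usp29 and Nespas passed the filter only through the knockout group. Mest minus Copg2 shows the largest shift, 1.5.

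Transcript entries show where within a gene the values changed. Of the 158 entries of members, 81 had a mean of at least 1 FPKM, and 28 of them, in 22 genes, were called higher and 0 lower (limma, 39 and 3 at an unadjusted p under 0.05), against 12.0% and 5.93% of 26612 entries tested. For Mest the main entry, Mest-211, had 33.1 ± 6.72 FPKM in knockout cells and 8.86 ± 2.73 FPKM in control cells (SD, n = 4 each; adjusted p = 0.0014). Sgce-205 carried most of Sgce, with 4.62 ± 0.921 FPKM in knockout cells and 0.650 ± 0.453 FPKM in control cells, and for Slc38a4 both entries rose, the full-length Slc38a4-201 by 4.55-fold and a shorter one by 3.66-fold. In Ppp1r9a the only called entry was a short noncoding one, Ppp1r9a-207 of 357 bases, with 1.84 ± 0.303 FPKM in knockout cells and 0.362 ± 0.0461 FPKM in control cells (SD, n = 4 each).

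The Gnas locus starts transcripts at several promoters. Entries that begin at the extra-large product start, Gnasxl, summed to 0.940, 0.846, 0.813 and 1.05 FPKM in the knockout libraries, against 1.73, 1.10, 2.31 and 2.78 FPKM in the control libraries, and the groups did not overlap. Entries that begin at the Nesp start, which makes the maternally expressed neuroendocrine secretory protein, were at most 0.259 FPKM in the knockouts and 0.222 to 1.04 FPKM in the controls, which overlap narrowly. Entries from exon 1A, the control region upstream of the main start, held 4.01 ± 0.948 FPKM in knockout cells and 4.71 ± 0.659 FPKM in control cells (SD, n = 4 each), which overlap. A short coding entry at the alpha subunit start, Gnas-205 of 730 bases, had 0.866 ± 0.330 FPKM in knockout cells and 1.02 ± 0.339 FPKM in control cells (SD, n = 4 each), which overlap. With the main coding transcripts of the alpha subunit missing, the sum does not measure the bulk of Gnas expression. Inpp5f, a phosphatase of phosphoinositides, was not called as a whole, with 42.2, 39.7, 39.6 and 41.8 FPKM in the knockout libraries, against 37.0, 34.1, 46.4 and 44.8 FPKM in the control libraries (log2 change 0.02 ± 0.10, adjusted p = 0.902). Its coding entries that begin within the gene, where the imprinted variant starts, had 12.7, 27.1, 17.5 and 19.96 FPKM in the knockout libraries, against 7.06, 6.61, 9.62 and 15.0 FPKM in the control libraries. Entries from its first exon had 16.0, 5.78, 11.2 and 11 FPKM in the knockout libraries, against 18.2, 15.4, 18.2 and 14.6 FPKM in the control libraries. The opposite differences each overlap between the groups, and knockout replicate 2, the library low in long transcripts, is the most extreme in both.

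**Figure D4:**
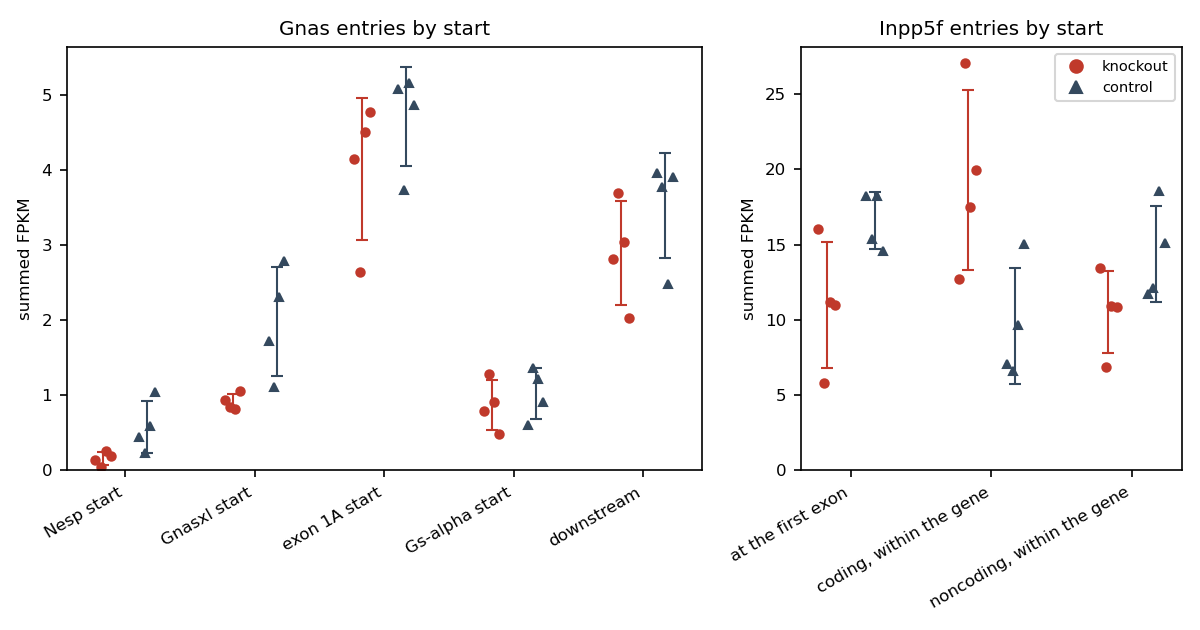
Summed FPKM of transcript entries grouped by where they start in Gnas (left) and Inpp5f (right), for each library, knockout in red circles left of control in dark triangles, with mean and SD bars (n = 4 each). For Gnas only the Gnasxl group parts the genotypes, below 1.05 FPKM in every knockout and above 1.10 FPKM in every control; for Inpp5f each of the 3 groups of entries overlaps.

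Genes of the imprinting machinery were called about as often as genes in general. On a list of 23 genes that set or protect imprints, 20 were tested, 5 rose and 3 fell, beside 25.3% higher and 12.1% lower over all genes tested, and the median log2 change was -0.19 against 0.09. Zfp57 had 15.1, 14.4, 15.1 and 16.0 FPKM in the knockout libraries, against 1.73, 2.13, 2.83 and 1.19 FPKM in the control libraries, a rise of 7.69-fold (log2 change 2.47 ± 0.16, adjusted p = 1.06e-05). Dnmt3l, the cofactor that guides new methylation in germ cells, had 6.38, 7.48, 5.82 and 6.06 FPKM in the knockout libraries, against 1.39, 1.31, 1.51 and 1.204 FPKM in the control libraries, 4.76-fold higher (adjusted p = 9.03e-06). The groups of both genes lie far apart. Ctcfl, a testis relative of the insulator protein CTCF, had 5.74 against 3.05 FPKM on average, Dppa3 2.19 against 0.980 FPKM, with overlapping groups, and Morc1, which silences transposons in male germ cells, 59.4 against 44.1 FPKM in knockout against control cells. The 3 falls were in Kdm1b, the second lysine 4 demethylase of this family, at 26.2 against 32.8 FPKM, in Arid4a at 3.45 against 6.48 FPKM and in Ehmt2, a lysine 9 methyltransferase, at 106 against 166 FPKM. The 12 others included Trim28, the partner of ZFP57, at 220.2 against 222 FPKM, and Uhrf1, which maintains methylation, at 110.0 against 111 FPKM.

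A further list of 46 imprinted genes was handled the same way. Some lie in or beside these clusters, as Casd1 does beside Sgce, and others lie outside them or have weaker evidence. There were 23 tested with a unique symbol, of which 12 rose and 3 fell, with a median of 0.33, beside 25.3% higher, 12.1% lower and a median of 0.09 over all genes tested. The count of falls is thus near the background. The largest rises were in Ddc, an amino acid decarboxylase (12.5 against 1.86 FPKM on average in knockout against control cells), Phactr2 (5.58 against 1.21 FPKM), Smoc1 (22.2 against 8.38 FPKM), Adam23 (6.03 against 2.00 FPKM), Sfmbt2 (46.3 against 19.1 FPKM), Qpct (2.84 against 0.783 FPKM), Atp10a (6.71 against 3.44 FPKM) and Zdbf2 (2.45 against 1.11 FPKM). Ddc stood highest in knockout replicate 2. Smaller rises were seen in the X-linked genes Xlr4b and Xlr4c, in Casd1 and in Osbpl5, and falls in Begain (4.12 against 6.83 FPKM), Bcl2l1 (27.2 against 36.6 FPKM) and Ano1 (1.14 against 2.68 FPKM). Neither list was tested as a set.

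Genes beside the called members did not all move with them. Among 25 tested nearest neighbours that are not on either imprinted list, 9 were higher, 2 were lower and 14 were not called, beside 25.3% higher and 12.1% lower over all genes tested. Cep41, left of Mest, had 21.4 ± 1.14 FPKM in knockout cells and 13.3 ± 0.705 FPKM in control cells (SD, n = 4 each). Src, beside Nnat, went the other way, with 9.20 ± 0.684 FPKM in knockout cells and 15.6 ± 0.994 FPKM in control cells (SD, n = 4 each; adjusted p = 0.000254). Amigo2, beside Slc38a4, had a log2 change of 0.02 and was not called.

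Imprinted genes such as Igf2, Dlk1, Mest and H19 are strong in growing somatic tissues, so markers of other testis cells were read beside them. The summed FPKM of 16 germ cell markers was 2012 to 2586 in the knockouts and 2106 to 2283 in the controls, which overlap. That sum is mainly Uchl1, Dazl and Ddx4, none of them called, so it says little of the other markers. Uchl1 alone averaged 734.5 FPKM in knockout cells and 708.3 FPKM in control cells. All 16 were tested: Sohlh2, Tex101 and Dppa3 rose, Zbtb16, Sall4, Lin28a, Nanos2 and Nanos3 fell, and 8 were not called, beside 25.3% higher and 12.1% lower over all genes. In knockout against control cells Zbtb16 averaged 22.4 against 61.2 FPKM and Lin28a 36.2 against 74.3 FPKM, while Sohlh2 averaged 101.5 against 52.9 FPKM. For the 16 Sertoli cell markers the sums were 51.5 to 104.2 in the knockouts and 35.4 to 86.4 in the controls, with 0 of 12 called (limma, 1 at an unadjusted p under 0.05). The median log2 change of this list was 0.46, against 0.09 for all genes tested. Control replicate 1 alone reached 86.4, while the other controls were at 57.0 or less, below knockout replicates 1, 3 and 4. Of the 6 endothelial markers 5 had a row, and their sums were 11.8 to 12.5 in the knockouts and 4.00 to 5.76 in the controls. Pecam1 and Tek rose to 4.55 and 4.13 FPKM in knockout cells, against 1.39 and 1.05 FPKM in control cells, while Cdh5, the defining cadherin of endothelium, had 2.09 against 1.86 FPKM and was not called. Fibroblast markers summed to 21.2 to 26.8 in the knockouts and 33.5 to 48.4 in the controls, but this gap rests on Col1a1, at 15.6 FPKM in knockout cells and 28.7 FPKM in control cells. Without Col1a1 the sums were 5.23 to 11.3 in the knockouts and 2.67 to 22.4 in the controls, which overlap, and 4 of the 5 tested markers were not called (list median 0.16). Knockout and control sums for Leydig (3.75 to 7.78 against 2.54 to 5.23), peritubular (4.79 to 7.26 against 4.09 to 6.80) and macrophage markers (1.86 to 3.95 against 2.04 to 2.78) overlapped. Of the 2 tested Leydig markers Hsd17b3, an enzyme of testosterone synthesis, was called higher, at 3.34 FPKM in knockout cells and 1.43 FPKM in control cells with overlapping groups (log2 change 0.88, adjusted p = 0.0430). Of 5 erythroid markers 2 had a row and 0 were tested, and their sums were 1.60 to 2.50 in the knockouts and 0.282 to 0.760 in the controls. That sum is mainly Alas2, which makes haem, at 1.65 FPKM in knockout cells and 0.289 FPKM in control cells, while the globin Hbb-b1 averaged 0.234 FPKM in knockout cells and 0.268 FPKM in control cells and overlapped. Their part in the changes of the imprinted genes was not tested, and in bulk samples more cells of a type and more RNA per cell cannot be told apart.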

How the data were processed

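The authors deposited FPKM for 45550 transcript entries in 8 libraries. Per the labels' protocols, testes were digested, GFP positive cells were sorted, and the TruSeq Stranded mRNA kit was used. The authors used mm10 with Cufflinks, Cuffdiff, TopHat and Bowtie, per the submitters' processing notes. No source used here states versions, annotation release or strand setting. The deposited FPKM are estimates, shared among overlapping transcripts, so no count model was used.

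Transcript FPKM were summed by gene identifier. Genes averaging 1 FPKM or more were tested on log2(FPKM + 1), pseudocount 1, by limma 3.58.1 in R 4.3.3 (eBayes with trend, two-sided, group only), with Benjamini-Hochberg adjustment over all 13483 genes and calls at adjusted p under 0.05. Folds are ratios of mean FPKM, log2 changes carry the SE, and the log2 scale understates the change of low genes. The code was tested on simulated data. Exact permutation tests used scipy 1.17.1. As background for gene pairs, every tested gene was set against the next tested gene on its chromosome.

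Depth came from the steps of low FPKM in single-entry genes: 62.0% to 66.8% of values of up to 20 fragments were whole to within 0.1 fragment, where 20% would be by chance. Fragment numbers derived from it are approximate. Gene positions came from GENCODE M21 on GRCm38, in which all 45 members with a row were found, and promoters from RefSeq on GRCm38.p6. Symbols on several gene identifiers were left out of the lists.

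The members and lists were chosen with earlier results of these data known. The rule for named genes was Kdm1a, all 52 members, called genes of the regulator and further imprinted lists, up to 2 markers a cell type and the nearest tested neighbours; Cdh5, Trim28, Uhrf1, Hsd17b3, Alas2, Hbb-b1 and the named germ cell markers were chosen after their values were seen. Alternatives covered pseudocount, filter, scaling, limma settings, the replicate block, transcript choice, threshold and each library left out.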

Additional observations from a re-analysis of the deposited data

Results flagged for a closer look

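Among 98 groups of 4 libraries, the tested members and the gene pairs in each genotype, 5 held a library whose gap to the nearest of the others was large for its group's range, and about 4.9 would be flagged by chance. Tssc4 had 39.1 FPKM in knockout replicate 2, against 26.5 to 28.3 FPKM in the other knockouts. Snrpn had 17.5 FPKM in knockout replicate 2, against 14.5 to 15.0 FPKM in the others. Impact had 8.65 FPKM in knockout replicate 2, against 12.2 to 12.7 FPKM in the others. Blcap had 19.9 FPKM in knockout replicate 4, against 20.86 to 20.95 FPKM in the others. H13 had 20.5 FPKM in control replicate 2, against 17.8 to 18.1 FPKM in the other controls. Knockout replicate 2, which differs from the others by transcript length, holds 3 of the 5.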

How the results depend on the processing

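Of the 24 called members, 21 kept their call with any library left out, and 15 kept it under every alternative other than the filter of 5 FPKM, which removes low genes. With each library left out, 20 to 24 members were called higher and 2 lower, with 14 to 17 paternally expressed and 5 to 7 maternally expressed higher. A mean of at least 5 FPKM left 13 members called higher, 9 paternally and 4 maternally expressed. Fewer genes were tested there, and Ppp1r9a, still tested, lost its call (limma, adjusted p = 0.0545). Equal FPKM totals gave 34 higher, 15 of them maternally expressed, and 0 lower; log2 changes there turned to 0.29 for Gnas, 0.65 for Dlk1, 0.26 for Trappc9 and 0.62 for Blcap, against a median of 0.74 over all genes. The most abundant transcript entry gave 1 lower member, which is maternally expressed, and 0 called pairs. At adjusted p under 0.01, 0 members were called lower (2 at 0.05, limma). Median-ratio scaling gave 20 higher and 3 lower and quantile normalization 19 and 2; Plagl1 and Ppp1r9a lost their calls under both, and Mkrn3 under the second (adjusted p = 0.0622). The cause of these differences was not tested. Shares of all genes called were not computed under these settings, so the counts lack a matching background.

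Deviations of same-numbered libraries from their group means correlated at -0.133 to 0.224, so the numbers were not taken to pair the samples. With the replicate block, 22 members were called higher and 2 lower: Peg3 gained a call (adjusted p = 0.0356) and Commd1 lost it (adjusted p = 0.0713). For the gene pairs, exact sign flips within replicate numbers (replicate block, 16 flips) called 0 pairs, where p cannot go below 0.125, and with a library left out it cannot go below 0.0571, so neither speaks to stability. The shifts without 1 library kept their sign, except Zrsr1 minus Commd1 (-0.14 to 0.04). Depth limits members such as Airn, with 2 to 21 fragments a library.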
